A study of Mus musculus with 36 samples.

Results

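The nuclear receptor genes Nr1d1, Nr1d2 and Rora were followed over the day in the mouse left ventricle, on 36 Affymetrix arrays of 1 mouse each. They encode REV-ERB alpha, REV-ERB beta and ROR alpha. The members were every measured gene among these names, taken through probe sets annotated to a single gene symbol. That gave 3 genes of the 12393 measured and 6 probe sets of the 20380 used, namely 1 for Nr1d1, 2 for Nr1d2 and 3 for Rora. Rorb, the ROR beta gene, was measured and is given as a list member.

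Transverse aortic constriction (TAC), which narrows the aorta and puts the left ventricle under pressure, had been performed on part of the mice and a SHAM operation on the others, 8 weeks before the hearts were taken. Hearts were collected at 6 times of day 4 h apart, ZT03, ZT07, ZT11, ZT15, ZT19 and ZT23, where ZT is zeitgeber time, with 3 mice at every time of each surgery and so 12 groups. The SHAM hearts carry the disease state normal in the labels. No genotype, transgene or drug is named in the labels for either surgery, and the sources used here give no strain, sex, age or light schedule. The tissue was the whole left ventricle with all its cell types, so fewer cells of a type and less RNA per cell cannot be told apart.

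REV-ERB and ROR receptors form the second loop of the circadian clock. The activators CLOCK and BMAL1 (the product of Arntl) bind E-box sequences and drive the REV-ERB genes, and the REV-ERB proteins then repress Arntl. REV-ERB proteins lack the surface that recruits coactivators, bind heme as ligand and recruit a corepressor complex that contains HDAC3, whereas ROR proteins bind the same DNA elements and activate. In heart muscle REV-ERB proteins are known as brakes on clock output and metabolic genes.

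The deposited values are relative log values, taken here as log2. For every probe set the median was 0 among the 18 SHAM arrays, and it was also 0 among the 18 TAC arrays. A value therefore says how far an array stood from the median of its own surgery, and whether TAC hearts held more or less of any receptor mRNA than SHAM hearts could not be measured. Array medians lay between -0.036 and 0.027. The 8 cardiomyocyte marker genes had group means between -0.096 and 0.05, but the centring hides whether any marker is abundant. In 4 arrays the mean of the airway epithelium or thymocyte marker genes stood more than 1 above the median of the surgery, with airway epithelium at 1.12 in SHAM ZT23 replicate 3, 1.66 in TAC ZT23 replicate 1 and 1.34 in TAC ZT03 replicate 3, and thymocytes at 2.43 in SHAM ZT11 replicate 3. Each of those lists was measured whole, 6 airway and 7 thymocyte genes. The mean of the 5 atrial cardiomyocyte genes also moved with time, to -0.70 ± 0.33 (SD, n = 3) at SHAM ZT07 and -0.91 ± 0.41 at TAC ZT23, and that of 4 of the 6 white adipocyte genes to 0.81 ± 0.18 at TAC ZT15, with single arrays up to 1.12 at SHAM ZT11, 1.26 at TAC ZT11 and 1.01 at TAC ZT15. Main calls for the members are also given without the 4 arrays with airway or thymocyte markers. Where it changed a call, they are given with the atrial and adipocyte means as covariates. The correlations between mice were not run in these ways.

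Nr1d1 encodes REV-ERB alpha, a repressor of Arntl. In GRCm38.p6 the gene lies on the minus strand at chr11:98767932-98775377. The 250 bases before its start site are shown because E-box sequences upstream are the route by which CLOCK and BMAL1 act on the REV-ERB genes. The sequence comes from RefSeq (GRCm38.p6, chr11:98775378-98775627, minus strand) and the capitals mark AACGTG, the reverse complement of the E-box variant CACGTT, at positions -28 to -23 counted from the start.
Nr1d1 upstream: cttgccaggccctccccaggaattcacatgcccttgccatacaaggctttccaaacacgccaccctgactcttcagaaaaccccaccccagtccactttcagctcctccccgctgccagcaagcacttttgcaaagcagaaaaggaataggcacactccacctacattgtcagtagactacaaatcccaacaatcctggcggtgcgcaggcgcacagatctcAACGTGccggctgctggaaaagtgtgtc

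In SHAM hearts the 3 mice had Nr1d1 values of 0.59, 0.77 and 0.58 at ZT03, and of 1.13, 1.26 and 1.20 at ZT07. At ZT11 the values were 0.15, 0.41 and 0.30, and at ZT15 they were -0.31, -0.42 and -0.15. All 3 mice at ZT07 stood above every mouse of the other times, and the values then declined over the next times. The lowest values were those of ZT19, at -0.88, -1.04 and -0.84. By ZT23 the mice were at -0.39, -0.40 and -0.24. In order of the means, ZT07 (1.20 ± 0.06, SD, n = 3) stood above ZT03 (0.65 ± 0.10), ZT11 (0.28 ± 0.13), ZT15 (-0.29 ± 0.14), ZT23 (-0.34 ± 0.09) and ZT19 (-0.92 ± 0.11). Of these neighbours, ZT15 and ZT23 were the pair whose mice overlapped.

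In TAC hearts the values were 1.20, 1.48 and 0.77 at ZT03, and 1.24, 1.12 and 1.23 at ZT07. The mice of both times overlapped, so ZT03 and ZT07 did not differ beyond the spread between TAC mice. The lowest of the ZT03 mice, replicate 3, is also 1 of the arrays with airway markers. Values were 0.10, 0.12 and 0.23 at ZT11 and -0.27, -0.33 and -0.55 at ZT15. The ZT19 mice, at -0.50, -0.77 and -0.58, overlapped with those of ZT15. Values of -0.10, -0.28 and -0.29 followed at ZT23. The means were ordered ZT07 (1.19 ± 0.07), ZT03 (1.15 ± 0.36), ZT11 (0.15 ± 0.07), ZT23 (-0.22 ± 0.11), ZT15 (-0.38 ± 0.15) and ZT19 (-0.61 ± 0.14). Neighbours overlapped between ZT07 and ZT03, between ZT23 and ZT15 and between ZT15 and ZT19.

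**Figure D1:**
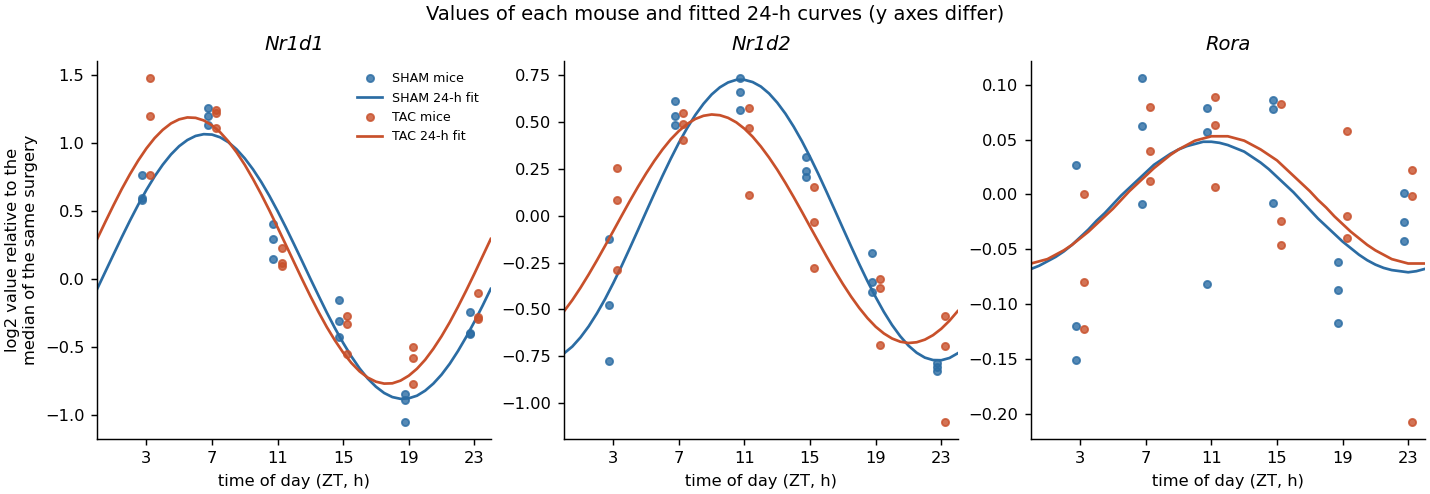
Values of each mouse (points) and fitted 24-h curves (lines) for Nr1d1, Nr1d2 and Rora, with time of day (ZT, h) across and the log2 value relative to the median of the same surgery upwards, SHAM in blue and TAC in orange, on axes that differ between genes. Nr1d1 and Nr1d2 rise and fall over the day in both surgeries, with the TAC curve peaking earlier, whereas every Rora value lies between -0.21 and 0.11.

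Nr1d2 encodes REV-ERB beta, which overlaps REV-ERB alpha in function. The gene lies on the minus strand of chromosome 14, at chr14:18204056-18239106 in GRCm38.p6. Its 250 upstream bases (RefSeq, GRCm38.p6, chr14:18239107-18239356, minus strand) are shown because they hold AGGTCA, the half-site that REV-ERB and ROR proteins themselves recognise when an AT-rich stretch precedes it. The capitals mark that match, at positions -77 to -72 counted from the start.
Nr1d2 upstream: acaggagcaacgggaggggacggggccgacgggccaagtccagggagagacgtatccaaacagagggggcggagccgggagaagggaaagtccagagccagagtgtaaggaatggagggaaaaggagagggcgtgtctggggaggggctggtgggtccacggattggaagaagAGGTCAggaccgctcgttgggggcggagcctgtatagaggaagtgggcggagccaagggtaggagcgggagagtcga
The Arntl site is shown beside it, since Arntl is the best known gene that the REV-ERB proteins repress. A 26-base stretch of the second Arntl promoter in the table (RefSeq, GRCm38.p6, chr7:113207532-113207557, plus strand) holds the same letters, in capitals, at positions 31 to 36 after the start.
Arntl site: ggcagaaagtAGGTCAgggacggagg
Windows of 300 bases, 250 before and 50 after each start, were searched on both strands for 5 motifs, of which the D-box forms TTATGNAA and TTANGTAA can match the same bases. Over all 32851 windows, AGGTCA occurred in 16.3%, CACGTG in 7.15%, CACGTT in 4.68%, TTATGNAA in 3.38% and TTANGTAA in 2.32%. The Nr1d1 and Nr1d2 windows each held the 1 match given above, and the Rora window held none of these letters. A match is a description of letters, not a binding site.

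In SHAM hearts Nr1d2 values were -0.12, -0.48 and -0.77 at ZT03, and 0.61, 0.48 and 0.53 at ZT07. At ZT11 they were 0.66, 0.73 and 0.57. At ZT15 they were 0.24, 0.32 and 0.21. The highest mice were thus at ZT07 and ZT11, which overlapped, and the 3 mice at ZT03 were spread more widely than at any other time. Values were -0.35, -0.41 and -0.20 at ZT19, and -0.78, -0.83 and -0.80 at ZT23. The order of the means was ZT11 (0.65 ± 0.09), ZT07 (0.54 ± 0.07), ZT15 (0.25 ± 0.06), ZT19 (-0.32 ± 0.11), ZT03 (-0.46 ± 0.33) and ZT23 (-0.81 ± 0.02). Besides ZT11 and ZT07, the neighbours ZT19 and ZT03 overlapped.

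In TAC hearts Nr1d2 stood at 0.26, 0.09 and -0.29 at ZT03, and at 0.41, 0.49 and 0.55 at ZT07. At ZT11 the mice were at 0.58, 0.11 and 0.47, and at ZT15 at -0.28, 0.15 and -0.03. The values from ZT11 to ZT15 were more spread than in SHAM, and every neighbour from ZT07 down to ZT15 overlapped. At ZT19 the values were -0.38, -0.69 and -0.34, and at ZT23 they were -0.54, -0.70 and -1.10. The means were ordered ZT07 (0.48 ± 0.07), ZT11 (0.39 ± 0.25), ZT03 (0.02 ± 0.28), ZT15 (-0.05 ± 0.22), ZT19 (-0.47 ± 0.19) and ZT23 (-0.78 ± 0.29), and ZT19 and ZT23 overlapped as well.

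Both REV-ERB genes had a strong 24-h rhythm in both surgeries. A cosine of 24 h was fitted with limma over all arrays, its amplitude being the distance from the midline to the peak, with Benjamini-Hochberg adjustment of p across every gene tested and a threshold of 0.05. Nr1d1 had an amplitude of 0.97 ± 0.07 (SE, n = 18 arrays) in SHAM, a 3.86-fold difference between peak and trough, with the peak at ZT6.65 ± 0.27 h and an adjusted p of 1.97e-11. In TAC its amplitude was 0.98 ± 0.07, or 3.89-fold, with the peak at ZT5.67 ± 0.27 h (adjusted p = 3.28e-11). Only 1 gene had a larger amplitude in SHAM, where Nr1d1 ranked 2 of 12393, and in TAC it ranked 5 by amplitude and 1 by p-value.

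For Nr1d2, the mean of its probe sets, the amplitude was 0.75 ± 0.06 in SHAM, a 2.83-fold peak-to-trough difference with the peak at ZT10.8 ± 0.3 h (adjusted p = 2.93e-09), and 0.61 ± 0.06 in TAC, a 2.33-fold difference with the peak at ZT9.07 ± 0.40 h (adjusted p = 4.52e-07). It ranked 7 by amplitude in SHAM and 15 in TAC. Thus 2 of the 3 members passed in each surgery, where 5.58% of all genes passed in SHAM and 4.35% in TAC. A test for a change of any shape over the 6 times also passed for Nr1d1 (adjusted p = 1.16e-12 in SHAM and 6.44e-13 in TAC) and for Nr1d2 (9.93e-08 and 1.18e-05), against 3.37% and 5.26% of all genes. The REV-ERB rhythms passed under every alternative run, including the fit in which the atrial and adipocyte means were covariates, where Nr1d1 reached 1.05 in SHAM and 0.996 in TAC and Nr1d2 reached 0.79 and 0.59. Without the 4 arrays with airway or thymocyte markers the Nr1d1 amplitudes were 0.99 and 0.998 and the Nr1d2 amplitudes 0.77 and 0.61.

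Nr1d2 followed Nr1d1 by several hours. The lag between the fitted peaks was 4.13 h in SHAM, with a range of 3.90 to 4.33 h when each array was left out in turn, and 3.40 h in TAC, with a range of 3.21 to 3.67 h. Dbp, an activator gene driven by CLOCK and BMAL1, peaked 3.61 h after Nr1d1 in SHAM and 3.11 h after it in TAC, and so 0.53 and 0.30 h before Nr1d2. Arntl, the target of repression, peaked 12.9 h after Nr1d2 in SHAM and 13.3 h after it in TAC, which is close to the opposite time of day. From Nr1d1 to Arntl the lag was 17.0 h in SHAM and 16.7 h in TAC.

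The TAC curves of both REV-ERB genes peaked earlier than the SHAM curves. For Nr1d1 the peak was earlier by 0.98 h (TAC minus SHAM -0.98 ± 0.38 h, 95% interval -1.75 to -0.22). Relabelling surgery among the mice of each time 100000 times gave a two-sided permutation p of 0.00161 for this shift. For Nr1d2 the shift was -1.71 ± 0.52 h (95% interval -2.76 to -0.66), with a permutation p of 0.00606. The amplitude difference of Nr1d1 was 0.01 ± 0.10 (95% interval -0.19 to 0.20, permutation p = 0.944), and that of Nr1d2 was -0.14 ± 0.09 (95% interval -0.32 to 0.04, permutation p = 0.101), so neither showed a difference, while differences up to those bounds are within the intervals. These 4 comparisons were the ones run. Without the 4 arrays with airway or thymocyte markers the shifts were -1.27 h for Nr1d1 (permutation p = 1.20e-04) and -1.86 h for Nr1d2 (permutation p = 0.00663), and neither amplitude difference passed (permutation p = 0.933 and 0.126). The Nr1d1 shift did not pass with quantile normalization (-0.92 h, permutation p = 0.051). Without the mice of replicate number 2 the Nr1d2 shift was -1.51 h (permutation p = 0.0937), and without TAC ZT23 replicate 3 the Nr1d2 amplitude difference was -0.20 (permutation p = 0.0115).

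Over all genes the difference of rhythm passed for neither gene. The limma test that the 24-h terms of TAC and SHAM are equal (n = 36 arrays) gave p = 0.0459 and an adjusted p of 0.789 for Nr1d1, and p = 0.00354 and an adjusted p of 0.567 for Nr1d2. That test passed for 0.0484% of all genes. The test of a difference of any shape between the courses gave an adjusted p of 0.367 for Nr1d1 and 0.563 for Nr1d2, where 0.0161% of all genes passed. Without TAC ZT03 replicate 3, the TAC mouse with the low Nr1d1 value and the airway markers, the adjusted p for the Nr1d1 time course was 0.0109, and without all 4 marked arrays it was 0.0181.

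**Figure D2:**
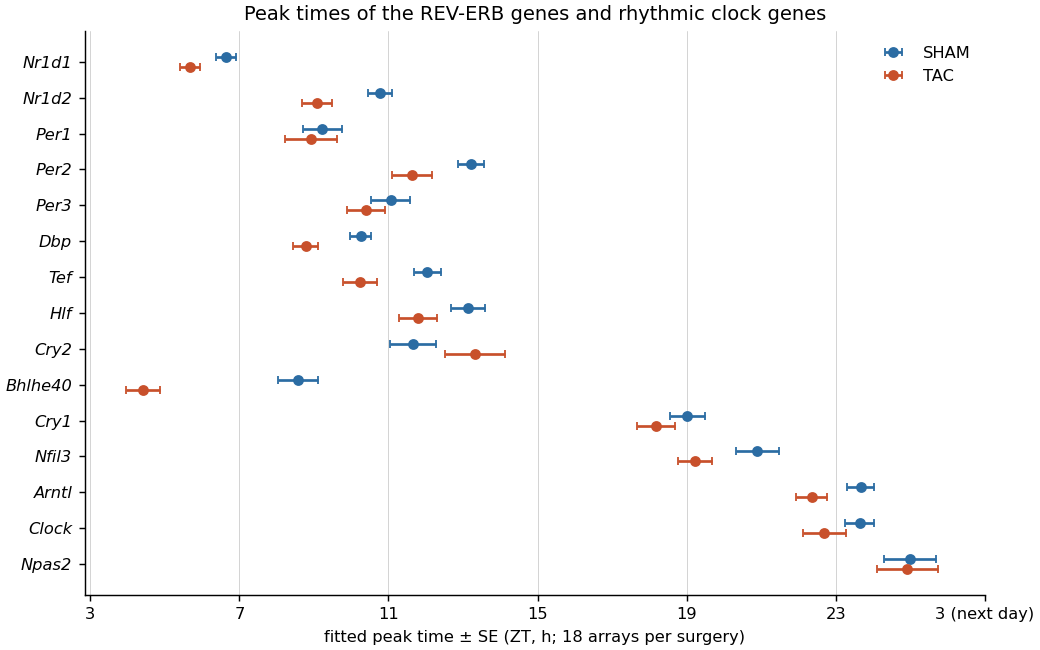
Fitted peak time ± SE (ZT, h, on an axis that runs past ZT23 into the next day) in SHAM (blue) and TAC (orange), 18 arrays per surgery, for the REV-ERB genes and the rhythmic clock genes measured. Nr1d1 peaks at ZT6.65 and ZT5.67 and Nr1d2 at ZT10.8 and ZT9.07, and among the other genes Cry2 is the one whose TAC peak is the later of the pair.

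The steps from each time to the next show where in the day the courses moved. From ZT23 to ZT03, Nr1d1 rose by 0.99 ± 0.11 (log2, SE) in SHAM (adjusted p = 1.63e-05, where 0.0161% of genes passed with a rise). In TAC it rose by 1.37 ± 0.11 (adjusted p = 1.03e-08, where 1.62% passed with a rise). From ZT03 to ZT07 it rose by a further 0.55 in SHAM (adjusted p = 0.00854, where 0.694% passed with a rise), while in TAC the step was 0.05 (adjusted p = 1). The difference of that step, TAC minus SHAM, was -0.51 ± 0.16 (adjusted p = 1) and did not pass. In SHAM both steps around ZT03 passed, and in TAC the one before it. Without the 4 marked arrays the step before ZT03 was 1.05 in SHAM (adjusted p = 1.13e-06) and 1.62 in TAC (adjusted p = 5.57e-10). The SHAM step did not pass with quantile normalization (adjusted p = 0.0522) or without replicate number 1 (adjusted p = 0.0699). The ZT03 to ZT07 rise in SHAM did not pass without SHAM ZT07 replicate 2 (adjusted p = 0.0523) or SHAM ZT03 replicate 3 (adjusted p = 0.0676), with quantile normalization (adjusted p = 0.435), or without any 1 of the 3 replicate numbers (adjusted p from 0.0539 to 0.128).

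The fall of Nr1d1 began with the step from ZT07 to ZT11. It fell by 0.92 in SHAM (adjusted p = 2.94e-05, where 0.0726% of genes passed with a fall) and by 1.04 in TAC (adjusted p = 5.41e-06). In TAC hearts Nr1d1 was the 1 gene of all 12393 called in that step in that direction, or 0.00807%. The next step, ZT11 to ZT15, was -0.58 in SHAM (adjusted p = 0.0623) and a fall by 0.53 in TAC (adjusted p = 0.0235, where 0.234% passed with a fall). From ZT15 to ZT19 Nr1d1 fell by 0.63 in SHAM (adjusted p = 0.0157, where 0.0565% passed with a fall), and the TAC step was -0.23 (adjusted p = 1). The ZT11 to ZT15 call in TAC was lost without TAC ZT11 replicate 2, TAC ZT11 replicate 3 or TAC ZT15 replicate 3 (adjusted p from 0.101 to 0.249), and the ZT15 to ZT19 call in SHAM without SHAM ZT19 replicate 1 or 2 or SHAM ZT15 replicate 3 (adjusted p from 0.0999 to 0.298). The last step, ZT19 to ZT23, was 0.58 in SHAM (adjusted p = 0.059) and 0.39 in TAC (adjusted p = 0.097).

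Nr1d2 passed in 1 step of each surgery, and not in the same one. In SHAM it rose by 1.001 ± 0.15 from ZT03 to ZT07 (adjusted p = 2.26e-04, where 0.694% of genes passed with a rise). The TAC step there was 0.46 (adjusted p = 1). In TAC it rose by 0.80 ± 0.15 from ZT23 to ZT03 (adjusted p = 0.00242, where 1.62% passed with a rise). The SHAM step there was 0.35 (adjusted p = 0.469). The differences between surgeries, TAC minus SHAM, were -0.54 ± 0.21 for the first step (adjusted p = 1) and 0.45 for the second (adjusted p = 0.72), so the steps were not shown to differ. The Nr1d2 steps from ZT11 to ZT23 lay between -0.58 and -0.31 in both surgeries and did not pass. The atrial marker mean was at its lowest in TAC at ZT23, the start of the rise before ZT03, and with the atrial and adipocyte means as covariates the Nr1d2 step was 0.61 and did not pass (adjusted p = 0.104). Nor did it pass without TAC ZT03 replicate 1 (0.67, adjusted p = 0.0501) or with quantile normalization (adjusted p = 0.0842). Leaving out replicate number 1 (adjusted p = 0.0676) or 2 (adjusted p = 0.154) also lost the call. Without the 4 marked arrays the step was 1.07 (adjusted p = 5.32e-04).

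**Figure D3:**
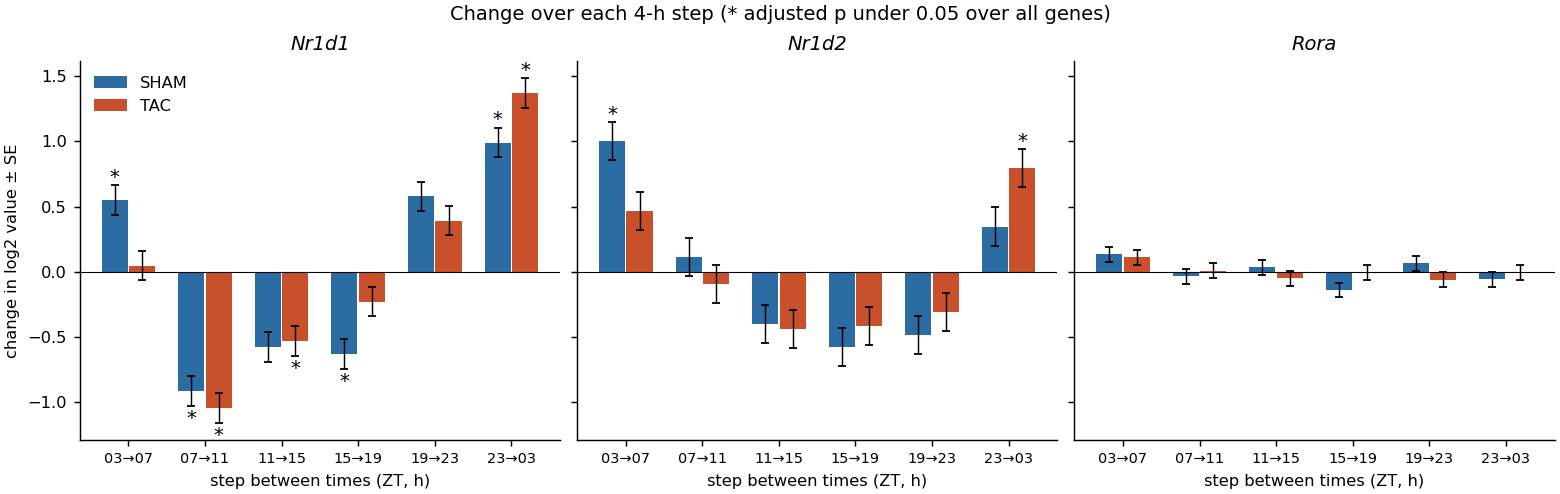
Change in log2 value ± SE from each time to the next (ZT, h) for Nr1d1, Nr1d2 and Rora in SHAM (blue bars) and TAC (orange bars), 3 mice per time, with an asterisk where the adjusted p over all genes was under 0.05. Nr1d1 has 7 marked steps and Nr1d2 has 2, and no Rora step is marked.

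A 12-h term was added to test for departures of the Nr1d1 course from a plain cosine. Adding a 12-h term gave that term an amplitude of 0.25 in TAC (adjusted p = 0.0215, where 1.03% of genes passed) and of 0.13 in SHAM (adjusted p = 0.999, where 0% passed). The 12-h terms of the surgeries were not shown to differ (adjusted p = 1), and the TAC call did not pass with TAC arrays alone (adjusted p = 0.364) or without any of 4 single arrays, TAC ZT11 replicate 2, TAC ZT11 replicate 3, TAC ZT23 replicate 1 and TAC ZT23 replicate 2 (adjusted p from 0.0563 to 0.0613). Without the 4 marked arrays together it passed at an adjusted p of 0.00644. With this term the fitted Nr1d1 curve peaked at ZT6.00 in SHAM and ZT5.12 in TAC, with troughs at ZT19.7 and ZT19.8. For Nr1d2 the 12-h amplitudes were 0.13 in both surgeries (adjusted p = 0.999 in SHAM and 0.547 in TAC), with peaks at ZT9.48 and ZT7.53 and troughs at ZT23.7 and ZT22.0. With this term the permutation p of the shift was 0.135 for Nr1d1 and 0.0804 for Nr1d2, on shifts of -0.90 and -1.95 h.

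The probe sets of Nr1d2 followed similar courses with different amplitudes. For probe set 1416958_at the amplitudes were 0.92 ± 0.09 (SHAM) and 0.74 ± 0.09 (TAC), and 1416959_at had 0.58 ± 0.05 and 0.48 ± 0.05. Both passed in both surgeries, with adjusted p between 1.14e-08 and 4.56e-06 over all probe sets, where 4.44% passed in SHAM and 3.87% in TAC. The shift was -1.56 ± 0.58 h for the first (difference of rhythm, adjusted p = 0.796) and -1.94 ± 0.54 h for the second (adjusted p = 0.539), where 0.0196% of probe sets passed. Nr1d1 was measured by 1426464_at alone, so no second probe set checks its values.

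**Figure D4:**
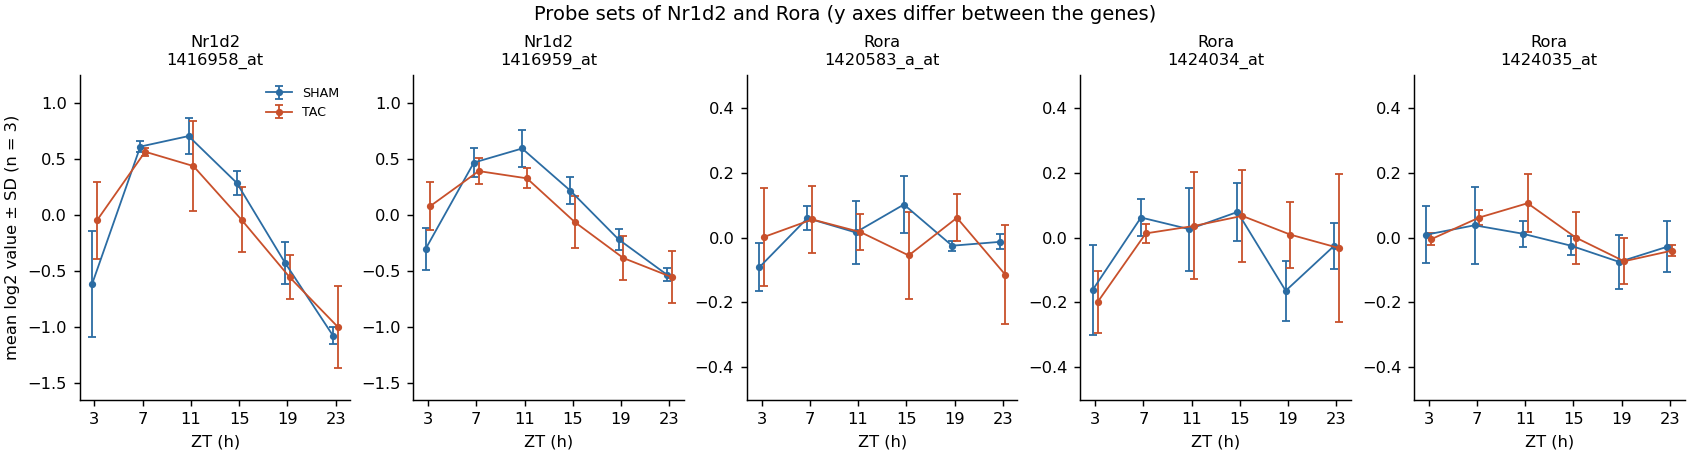
Mean log2 value ± SD (n = 3 mice) by time of day (ZT, h) for each probe set of Nr1d2 and Rora, SHAM in blue and TAC in orange, with y axes that differ between the genes. The pair of Nr1d2 probe sets follows 1 course, larger in 1416958_at, and the Rora probe sets vary by little more than the spread between mice.

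Rora encodes ROR alpha, the activator that competes with REV-ERB proteins for the same elements. Its gene spans 734843 bases, at chr9:68653404-69388246 on the plus strand. In SHAM hearts Rora stood at 0.06, 0.11 and -0.01 at ZT07 and at -0.06, -0.09 and -0.12 at ZT19, the times with the highest and the lowest mean. Its values at ZT03 were 0.03, -0.12 and -0.15. The SHAM mice at ZT11 were at 0.08, 0.06 and -0.08, at ZT15 at 0.09, 0.08 and -0.01, and at ZT23 at -0.04, -0.03 and 0.00. Neighbours in the order of the SHAM means, which ran from 0.05 to -0.09, overlapped throughout.

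In TAC hearts the highest Rora mean was at ZT11, with mice at 0.09, 0.01 and 0.06, and the lowest at ZT03, at -0.08, 0.00 and -0.12. At ZT07 the mice were at 0.04, 0.08 and 0.01, and at ZT15 at -0.05, -0.02 and 0.08. These overlapped as well. At ZT19 the values were 0.06, -0.04 and -0.02, and at ZT23 they were 0.00, 0.02 and -0.21. The lowest Rora value of all was thus that of TAC ZT23 replicate 3, the mouse that also had the lowest Nr1d2 value in TAC.

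No 24-h rhythm of Rora was detected. Its amplitude was 0.06 ± 0.02 in SHAM (adjusted p = 0.286) and 0.06 ± 0.02 in TAC (adjusted p = 0.282), a peak-to-trough difference of 1.09-fold and 1.08-fold. The 95% upper limits for the mean of its probe sets, 0.11 in both surgeries, correspond to at most 1.16-fold. A swing as large as that of Nr1d2 lies outside them, while a swing of up to 1.16-fold lies within. Larger amplitudes were found in 36.7% of genes in SHAM and in 37.9% in TAC. The any-shape test did not pass either (adjusted p = 0.404 and 0.469), nor did the difference between surgeries (adjusted p = 0.992). The nearest to a rhythm among its probe sets was 1424035_at in TAC, with an amplitude of 0.08 ± 0.02 (adjusted p = 0.0829). Probe set 1424034_at had larger amplitudes, 0.095 ± 0.042 in SHAM (adjusted p = 0.376) and 0.101 ± 0.042 in TAC (adjusted p = 0.297). Without the 4 arrays with airway or thymocyte markers Rora had 0.09 in SHAM (adjusted p = 0.0821) and 0.06 in TAC (adjusted p = 0.274). With array quality weights the gene passed in SHAM at an amplitude of 0.075 (adjusted p = 0.016), where 3126 of 12393 genes passed.

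Rorb, the ROR beta gene, known mainly from the brain and retina, did not pass in SHAM (amplitude 0.02 ± 0.04, adjusted p = 0.921) or in TAC (0.09 ± 0.04, adjusted p = 0.281). With it, 2 of the 4 measured receptor genes of the family passed in each surgery, where 5.58% of all genes passed in SHAM and 4.35% in TAC. The median amplitude of these 4 was 0.41 in SHAM and 0.35 in TAC, against 0.05 over all genes in both.

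The clock genes on which REV-ERB and ROR proteins act through ROR elements were rhythmic. Of the list Arntl, Clock, Npas2, Cry1 and Nfil3, 5 of 5 passed in each surgery, where 5.58% of all genes passed in SHAM and 4.35% in TAC. The median amplitudes of the 5 were 0.25 in SHAM and 0.22 in TAC. Arntl had 0.46 ± 0.04 in SHAM with the peak at ZT23.7 and 0.39 ± 0.04 in TAC with the peak at ZT22.4, a shift of -1.31 ± 0.55 h. Nfil3, a repressor of D-box genes, had 0.52 ± 0.08 with the peak at ZT20.9 and 0.65 ± 0.08 with the peak at ZT19.2. Cry1, a repressor of CLOCK and BMAL1, had 0.23 ± 0.03 with the peak at ZT19.0 and 0.22 ± 0.03 with the peak at ZT18.2. Clock, the partner of Arntl, peaked at ZT23.6 and ZT22.7, and Npas2, its relative, at ZT0.985 and ZT0.919. The difference of rhythm passed for 0 of the 5 genes and for 0.0484% of all genes.

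Genes driven through E-boxes and D-boxes, as the REV-ERB genes themselves are, passed in 8 of 9 cases in each surgery, Bhlhe41 being the exception. Over all genes 5.58% passed in SHAM and 4.35% in TAC. The median amplitudes of the 9 were 0.34 in SHAM and 0.26 in TAC. Dbp had 1.59 ± 0.12 in SHAM and 1.34 ± 0.12 in TAC, and Per2, a repressor of CLOCK and BMAL1, had 0.40 ± 0.04 and 0.26 ± 0.04. The difference of rhythm passed for 1 of the 9, Bhlhe40 (adjusted p = 0.0473), another repressor of the clock, where 0.0484% of all genes passed. With replicate number 1, 2 or 3 left out, 0 genes passed that test, so the Bhlhe40 call was lost each time.

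Genes for the proteins that work with the receptors are read against all genes, of which 5.58% passed in SHAM and 4.35% in TAC, and 18.8% and 19.8% had an unadjusted p under 0.05. Of the corepressor complex 4 genes were analysed here, namely Hdac3, Tbl1x, Tbl1xr1 and Gps2, and with limma 0 of 4 passed in either surgery and 0 had an unadjusted p under 0.05. Of the ROR coactivators 6 of 7 were measured and 1 passed in SHAM, Ncoa1, at 0.13 ± 0.03 with the peak at ZT21.3 (adjusted p = 0.0101). In TAC Ncoa1 was at 0.09 ± 0.03 (adjusted p = 0.137), and 0 coactivators passed there with limma, with 3 of 6 at an unadjusted p under 0.05.

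Heme is the ligand of the REV-ERB proteins. Of its synthesis and breakdown genes 9 of 10 were measured and 1 passed in each surgery, against 5.58% of all genes in SHAM and 4.35% in TAC. Alas1, the rate-limiting enzyme of heme synthesis, had an amplitude of 0.27 ± 0.05 in SHAM with the peak at ZT19.3 (adjusted p = 0.00223), and of 0.14 ± 0.05 in TAC (adjusted p = 0.217). Hmox2, a heme oxygenase, had 0.09 ± 0.02 in TAC with the peak at ZT18.0 (adjusted p = 0.0458). The difference between surgeries did not pass for either gene (adjusted p = 0.881 and 0.863).

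Of 6 genes for the turnover of REV-ERB proteins 2 passed in SHAM and 0 in TAC, against 5.58% and 4.35% of all genes. In TAC 1 of them had an unadjusted p under 0.05 with limma, against 19.8% of all genes. Fbxw7, the substrate receptor of a ubiquitin ligase, had 0.30 ± 0.05 in SHAM with the peak at ZT20.8 (adjusted p = 0.00148) and 0.17 ± 0.05 in TAC (adjusted p = 0.14). Siah2, another ubiquitin ligase, had 0.21 ± 0.04 with the peak at ZT19.0 (adjusted p = 0.00224) and 0.10 ± 0.04 in TAC (adjusted p = 0.261). Their rhythms were not shown to differ between the surgeries (adjusted p = 0.88 for Fbxw7 and 0.863 for Siah2).

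Genes reported as REV-ERB or ROR targets outside the clock, in liver, macrophages and other tissues, were mostly not rhythmic. Of 18 listed 16 were measured and 1 passed in each surgery, near the share of all genes. Ccl2, a chemokine, had 0.15 ± 0.04 in SHAM with the peak at ZT1.56 (adjusted p = 0.0278). Insig2, which restrains sterol synthesis, had 0.12 ± 0.03 in TAC with the peak at ZT19.1 (adjusted p = 0.0244). The list's median amplitudes of 0.06 in SHAM and 0.07 in TAC stood beside 0.05 over all genes.

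For the REV-ERB genes, the spread between mice of the same surgery and time, pooled over the times, was larger in TAC. That difference was not tested. The SD around the group means was 0.11 in SHAM and 0.18 in TAC for Nr1d1, a ratio of 1.65, and 0.15 and 0.23 for Nr1d2, a ratio of 1.53 (TAC over SHAM). For Nr1d1 the TAC mice at ZT03 had an SD of 0.36, and the other TAC groups had 0.07 to 0.15. The SHAM groups had 0.06 to 0.14. The TAC ZT03 group includes replicate 3, 1 of the arrays with airway markers. For Rora the ratio was 1.12. Over all genes the median ratio was 1.23, and 71.9% of genes were more variable in TAC, so the direction is that of most genes.

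These differences between mice were set against those of Arntl. Deviations from the group mean were correlated over the 18 mice of a surgery, in 12 relations among the members and Arntl, with permutation p-values from shuffling mice within times. In SHAM, mice with more Nr1d1 had less Arntl (Pearson r = -0.70, permutation p = 0.0157, adjusted p = 0.0943, Spearman rho = -0.60, permutation p = 0.0425, adjusted p = 0.255), and r was -0.73 without the 2 mice farthest out in Nr1d1. In TAC, mice with more Nr1d2 had less Arntl (r = -0.78, permutation p = 0.00467, adjusted p = 0.056, rho = -0.73, permutation p = 0.0103, adjusted p = 0.123), and r was -0.62 without the 2 farthest. Neither passed after adjustment over the 12 relations. The TAC mice include 2 arrays with airway markers, ZT03 replicate 3 (Nr1d2 -0.31, Arntl 0.20) and ZT23 replicate 1 (0.24 and -0.27). The r without the 2 farthest left out ZT03 replicate 3 and kept ZT23 replicate 1. The relation was not computed without both marked arrays. With quantile normalization r was -0.31 for Nr1d1 in SHAM (adjusted permutation p = 0.274) and -0.76 for Nr1d2 in TAC (adjusted permutation p = 0.00552). The matching values were -0.44 for Nr1d1 in TAC (adjusted p = 0.383) and -0.10 for Nr1d2 in SHAM (adjusted p = 0.631), and the surgeries were not tested against each other.

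For Nr1d2 and Rora neither correlation passed after adjustment. Their r was 0.61 in SHAM (permutation p = 0.0996, adjusted p = 0.299, rho = 0.44, permutation p = 0.168) and 0.64 in TAC (permutation p = 0.0388, adjusted p = 0.155, rho = 0.55, permutation p = 0.0856). Without the 2 mice farthest out in Nr1d2 they were 0.24 and 0.45, so the SHAM relation rests on ZT03 replicates 1 and 3. Nr1d1 and Nr1d2 had r of 0.04 in SHAM (adjusted p = 0.945) and 0.48 in TAC (adjusted p = 0.341).

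**Figure D5:**
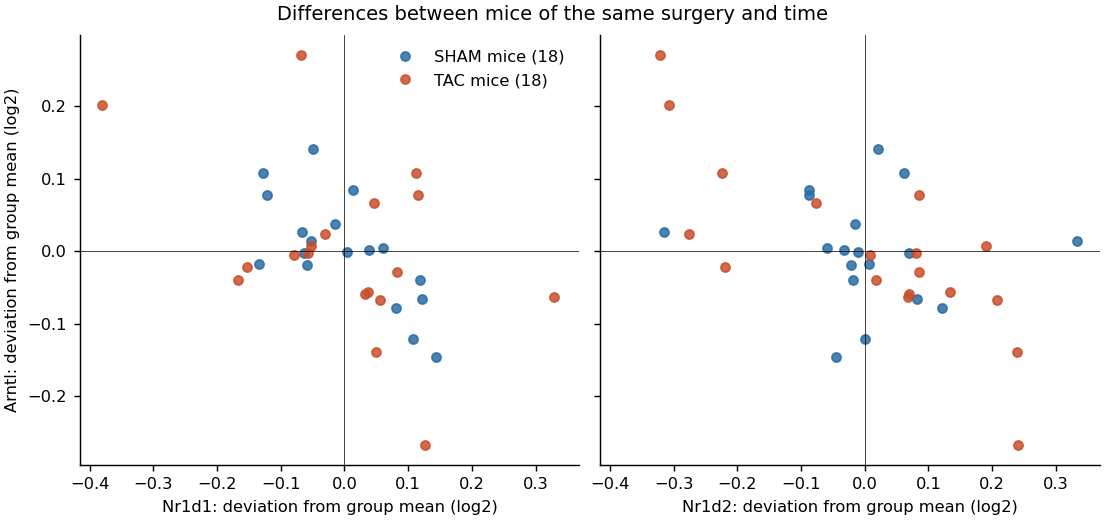
Deviation of Arntl from its group mean (log2, upwards) against that of Nr1d1 (left) and Nr1d2 (right, both log2, across), with 1 point per mouse, 18 SHAM mice in blue and 18 TAC mice in orange. Points run from upper left to lower right for Nr1d1 in SHAM (r = -0.70) and for Nr1d2 in TAC (r = -0.78).

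The genes most like each member were ranked by Pearson's r over the 12 group means, as a description with no test, since the means share 1 set of arrays and rhythmic genes follow few courses. Nearest to Nr1d1 were Pikfyve, a lipid kinase (0.93), Polr2a, the large subunit of RNA polymerase II (0.93), Tecpr1 (0.93), Pwp1 (0.93) and Rpf1 (0.93). Most opposite were Cry1 (-0.96), Mavs, an adaptor of antiviral signalling (-0.95), and Timm10b, of the mitochondrial import machinery (-0.95). Nearest to Nr1d2 were Dbp (0.97), Per3 (0.96), Tcap, a Z-disc protein (0.96), Tef, a relative of Dbp (0.93), and Slc25a33, a mitochondrial carrier (0.93), and most opposite were Tm4sf1 (-0.95), Cacul1 (-0.95) and Arntl (-0.94). Nearest to Rora were Snrk, a kinase (0.89), Xdh, xanthine dehydrogenase (0.88), Klf15, a Kruppel-like factor (0.88), Mylip (0.88) and H6pd (0.87), and most opposite were Mcam (-0.90), Srrm4 (-0.90) and Ccdc25 (-0.88). The r between members was 0.54 for Nr1d1 and Nr1d2, 0.71 for Nr1d2 and Rora and 0.23 for Nr1d1 and Rora, and with Arntl it was -0.32 for Nr1d1 and -0.74 for Rora.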

How the data were processed

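The deposited table holds log2-scale values of 22690 probe sets, made by the authors before deposit. Per the labels' protocols, Trizol-extracted RNA was turned into biotin-labelled cRNA for the arrays. The sources used here do not give the log base (taken as 2), the probe summarisation or the normalization. Probe set medians were within 1e-06 of 0 within each surgery. Of the probe sets, 20393 carried 1 symbol in the platform annotation (less 13 controls), 691 carried several, and 1606 had no entry. Entrez identifiers matched for 20351, and values were averaged per gene. No arrays were identical. Array number limits precision.

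Tests of rhythm used limma 3.58.1 (R 4.3.3) on all genes (cosine and sine per surgery, empirical Bayes without trend or filter). Group means gave steps, any-shape and time-course tests. Peak times and amplitudes were compared by relabelling surgery within times, and the limma tests of rhythm, its difference and the time course were checked on simulated data. Members and gene lists were chosen with earlier results of these data known. The rule allowed naming list members that passed and up to 2 others with the smallest p, and the 5 most and 3 least alike genes. Promoters came from RefSeq tables. Pairs of arrays with the same replicate number had a median r of 0.04 (198 pairs, 66 over 0.1). Pairs with other numbers had a median r of -0.013 (396 pairs, 85 over 0.1). For 23 of the 36 arrays the closest array of another group had the same number. Arrays of the same number were thus more alike in these values. That difference was not tested, and whether the numbers pair mice is not known. Alternatives, including leaving out each array, are in the closing section. Atrial and adipocyte covariates and other settings were listed with earlier results known. Leaving out the 4 marked arrays for peak and amplitude, and the test of unequal 12-h terms, were added after the data had been seen. Figures used matplotlib 3.10.9.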

Additional observations from a re-analysis of the deposited data

Results flagged for a closer look

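The peak of Nr1d1 was earlier in TAC than in SHAM, by -0.981 h (TAC minus SHAM), and a permutation test of the difference itself gave p = 0.00161. The peak of Nr1d2 was earlier in TAC by -1.707 h, with a permutation p of 0.00606. Each surgery enters with 18 mice, 3 at each of 6 times 4 h apart, so both shifts are shorter than the spacing of the times. The widest spread of Nr1d2 between mice was that of the SHAM hearts at ZT03 (SD 0.33, n = 3), 1 of the times at which the curves of the surgeries lie apart.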

How the results depend on the processing

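Of 2060 comparisons of 52 results with alternatives, 2004 stayed on the same side of the threshold, 45 no longer passed and 11 newly passed. Among steps, shifts, amplitude differences and correlations, 0 changed sign where either fit passed. Results that passed in neither could change sign, as did Nr1d2 with Arntl across SHAM mice (-0.103, and 0.184 with quantile normalization). The tests of rhythm and course carry no direction. Of the 45, 31 were single-step calls, lost with quantile normalization (5), an intensity trend (2), TAC arrays alone (1), covariates (1), 1 replicate number (13) or 1 array (9) left out, among them the Nr1d1 steps from ZT11 to ZT15 in TAC (quantile, adjusted p = 0.7) and from ZT15 to ZT19 in SHAM (without replicate 2, 0.537), and the Nr1d1 step from ZT07 to ZT11 in SHAM (without replicate 1, 0.0903) and the Nr1d2 step from ZT03 to ZT07 in SHAM (without replicate 2, 0.076). Both REV-ERB rhythms passed in every setting run. The 12-h term of Nr1d1 in TAC did not pass with quantile normalization (adjusted p = 0.0619), an intensity trend (0.0575), TAC arrays alone (0.364) or atrial and adipocyte covariates (0.0929), and without 1 array or replicate number its adjusted p ran from 0.00131 to 0.509, failing without TAC ZT11 replicate 2 or 3, TAC ZT23 replicate 1 or 2, and replicate numbers 1 or 2. Array quality weights, whose estimation did not fully converge and which called 3126 rhythmic genes in SHAM, made the Nr1d1 time course (0.00178), the Nr1d2 difference of rhythm (0.0081), the Nr1d2 time course (0.00123), the Rora rhythm in SHAM (0.016) and its any-shape test in SHAM (0.00207) pass. The Nr1d1 time course passed at 0.0181 without the 4 arrays with foreign markers, and ran from 0.0109 to 1 without 1 array. The Nr1d1 shift did not pass with quantile normalization (-0.922 h, permutation p = 0.051), in which a given rank takes the same value in every array. At TAC ZT03 Nr1d1 ranked 1 in replicates 1 and 2 and became 2.31 in both, and it became 0.67 in replicate 3. The Nr1d1 shift also did not pass with 12-h terms (-0.9 h, permutation p = 0.135), and it ran from -1.153 to -0.798 h without 1 array or number. The Nr1d2 shift did not pass with 12-h terms (-1.95 h, permutation p = 0.0804) or without replicate 2 (-1.508 h, permutation p = 0.0937), ranging from -2.043 to -1.426 h. The Nr1d2 amplitude difference passed without TAC ZT23 replicate 3 (-0.197, permutation p = 0.0115; range -0.197 to -0.095). The correlation of Nr1d2 with Arntl in TAC passed with quantile normalization (-0.756, adjusted permutation p = 0.00552) and with the probe set of largest SD (-0.733, 0.0382), as did Nr1d2 with Rora in TAC with that probe set (0.851, 0.00576) but not with quantile normalization (0.416, 0.274), which also gave -0.307 (0.274) for Nr1d1 with Arntl in SHAM. The replicate block, where 23 of 36 arrays were closest to their own number, changed no call of a member, called 726 genes in SHAM and 565 in TAC, and gave shift p-values of 0.00365 for Nr1d1 and 0.00268 for Nr1d2 by permutation within pairs. Except as stated, the cause of these changes was not tested.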

Other observations

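The gene beside Nr1d1 is Thra, the thyroid hormone receptor alpha gene. In GRCm38.p6 it lies at chr11:98740776-98769006 and shares 1075 bases with Nr1d1. Where the Nr1d1 probe set lies in relation to these bases was not analysed here. Thra had an amplitude of 0.14 ± 0.02 (SE, n = 18) in SHAM with the peak at ZT1.31 (limma, adjusted p = 2.83e-04) and 0.07 ± 0.02 in TAC (adjusted p = 0.101), and its rhythm was not shown to differ between surgeries (adjusted p = 0.863). Its SHAM means were highest at ZT23 (0.17 ± 0.03, SD, n = 3) and lowest at ZT15 (-0.10 ± 0.01), so it peaked hours before Nr1d1. Over the 12 group means its r with Nr1d1 was 0.22 and with Arntl 0.81, as a description. Thrb, 163958 bases from Nr1d2, did not pass in either surgery (adjusted p = 0.958 and 0.49).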
